A study of Homo sapiens with 8 samples.

Results

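786-O cells that had lost HIF2a were set against 786-O cells whose HIF2a had been blocked by a drug for 24 h or 48 h. The comparison took HIF2a null cells given DMSO, the solvent control, and parental cells given PT2399 at 2 uM, both measured at 24 h and at 48 h. Its arrays were chosen by the titles alone and make up 4 of the 8 arrays of the study, with 1 array for each genotype, treatment and time. The other arrays held parental cells in DMSO and null cells in PT2399, and the parental DMSO arrays are quoted below to show where each gene started. 786-O comes from a clear cell carcinoma of the kidney and carries no working VHL. Per the labels, the null cells were made with CRISPR. The labels do not say where the edit lies or whether the null cells are 1 clone, and the growth text, worded alike for every array, speaks of null cells only. The series text states that the parental and the null experiments were run independently of each other, so genotype and experiment run cannot be told apart in the differences given here.

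HIF2a, encoded by EPAS1, is the oxygen-regulated subunit of a transcription factor. VHL marks it for destruction when oxygen is plentiful, so cells without VHL keep it active. To bind DNA it must pair with ARNT, and PT2399 sits in a pocket of HIF2a and keeps the partners apart. Active HIF2a in clear cell renal carcinoma is known to raise genes for vessel growth, glucose uptake, lipid storage and cell cycle entry. The drug blocks the protein for the time of treatment, whereas an edited line has been grown without it.

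Every value is the log2 of a deposited probe set intensity, or a difference of such values taken as null DMSO minus parental PT2399. A positive difference means a higher level in null cells. Of 18417 genes on the arrays, the 11050 with a mean level at or above an intensity of 118 were tested with limma, with a term for time. An adjusted p (Benjamini-Hochberg over the 11050 genes) under 0.05 is called a pass. The 24 h pair and the 48 h pair are the only repeats, and nothing states that they came from separate cultures. limma draws the spread of each gene towards a spread pooled over all genes, with 8.67 prior degrees of freedom beside 1 residual. A p-value therefore mostly sets the mean difference of the 2 pairs against that shared spread. It reflects only in part how closely the 2 pairs of a gene agree, and n is 2 arrays a side throughout.

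The 4 arrays had median intensities between 99.4 and 134. Parental PT2399 at 24 h had the highest median and null DMSO at 48 h the lowest. Parental PT2399 at 24 h also stood somewhat apart from the other parental arrays. It correlated with them at 0.950 to 0.963, while they correlated with each other at 0.985 to 0.989. On it 64.7% of genes read above the limit, against 59.3% to 59.4% on those arrays. The median gene stood 0.16 lower in null cells, 0.19 at 24 h and 0.13 at 48 h, and list medians are given beside this shift. All 8 measured renal carcinoma markers lay above the limit, with summed intensities of 21228 and 19328 in parental PT2399 cells and 20783 and 22753 in null DMSO cells. The other lists had 1 gene each above the limit, namely CLDN5 of 9 endothelial, CD68 of 9 measured leukocyte and COL1A1 of 8 fibroblast genes. PAX8, the kidney lineage factor, read 2413 and 2225 in parental PT2399 cells and 2248 and 2152 in null DMSO cells.

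Far more genes separated the null cells from the drug-treated cells than the drug had changed in parental cells. The limma test passed 2099 genes as lower in null cells, which is 19% of those tested, and 829 as higher, which is 7.5%. At least a 2-fold difference in the same direction at both times was found for 608 lower genes, 5.5%, and 311 higher genes, 2.81%. All of these had also passed the test, as differences of that size nearly must with a spread shared over genes. The pass is therefore no separate support for the 2-fold count. PT2399 against DMSO in parental cells gave 28 lower genes (0.253%) and 5 higher genes (0.0452%) by the same 2-fold count, and null against parental cells in DMSO gave 517 (4.68%) and 344 (3.11%). These comparisons share arrays, so their counts are set side by side only. The drug comparison lies within the parental experiment, while both comparisons with null cells cross experiments run independently. Their larger counts therefore hold any difference between runs as well as the difference in genotype. In 289 of the 2099 lower and 116 of the 829 higher genes, both arrays of the lower group read under the limit of 118, so that the gene entered the test through its higher group. For such genes a bound is given in place of a difference, namely the mean of the higher group over the limit as "at least N-fold", since the files give no reading of background. Centring each array on its median moved all differences up by 0.16 and turned the 2099 and 829 into 1616 lower (14.6%) and 1363 higher (12.3%), so that 54.2% in place of 71.7% of the passing genes were lower. Quantile normalization gave 1442 and 1173.

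The count rests on how the spread is estimated. A fit over all 8 arrays passed 387 lower and 209 higher genes. Its spread includes the null PT2399 array of 48 h, which correlated with the other null arrays at 0.78 to 0.83 while those correlated with each other at 0.94 to 0.98. Without 1 array and without the time term, the lower and higher counts were 505 and 342 when the 24 h parental PT2399 array was left out, and 763 and 325 when the 48 h one was. They were 1113 and 422 without null DMSO at 24 h and 1145 and 562 without null DMSO at 48 h. For single genes below, a pass lost when 1 array was left out is given with the adjusted p of that limma fit. Such a fit leaves 1 array in a group, and its residual spread is the change between 24 h and 48 h in the other group. limma draws that spread towards a common value, and without a parental PT2399 array every gene was given the same spread. A lost pass can thus come from the shared spread, and does not show that the gene rests on that array.

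**Figure D1:**
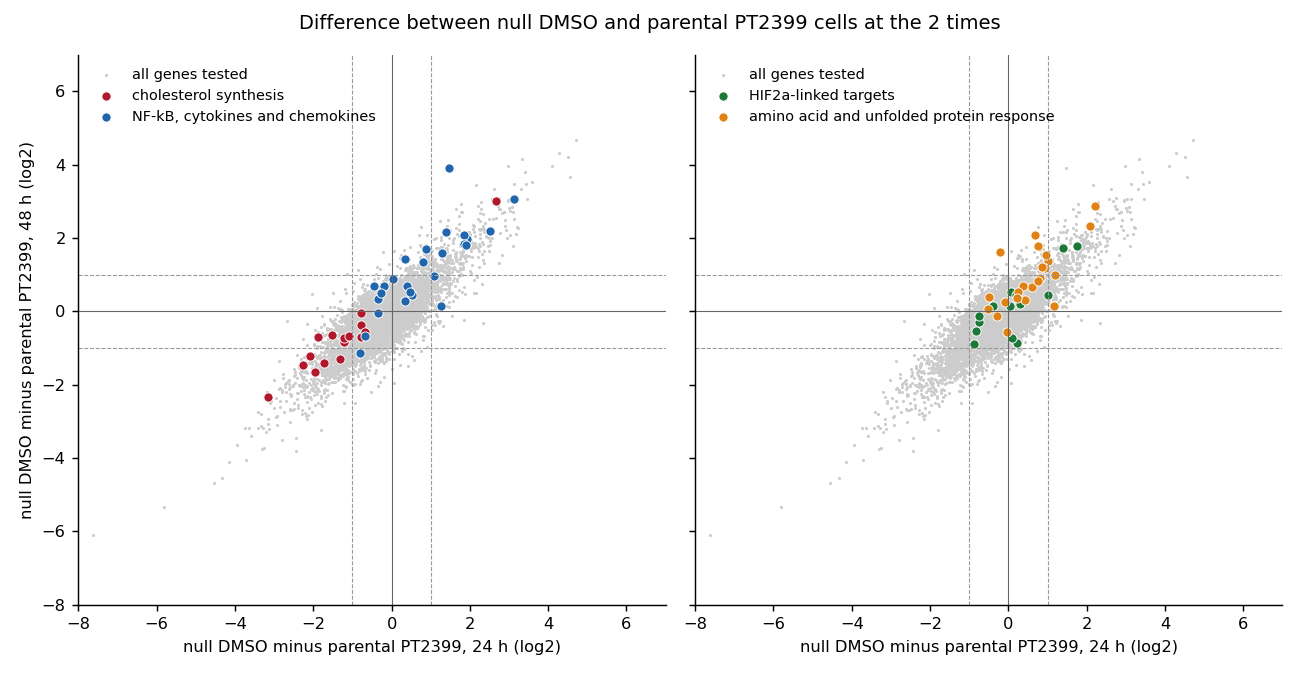
Difference between null DMSO and parental PT2399 cells in log2 units, at 24 h on the horizontal axis and at 48 h on the vertical axis; each grey point is 1 of 11050 genes and dashed lines mark 2-fold. Cholesterol synthesis genes lie mostly in the lower left with MVK alone at the upper right, cytokine and amino acid response genes mostly in the upper right, and most HIF2a-linked genes within 2-fold of 0.

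Of 13 tested genes for HIF subunits and oxygen sensing, 4 passed as lower in null cells, beside 19% of all genes, and none as higher, beside 7.5%. Of these 4, ARNT2 and HIF3A read under the limit in null cells and had to be high in parental cells to be tested. EPAS1 had intensities of 650 and 585 in null DMSO cells, 1519 and 1304 in parental PT2399 cells and 1277 and 1010 in parental DMSO cells at 24 h and 48 h. Both null arrays were lower than every parental array, and the difference was -1.19 ± 0.19 (SE, limma adjusted p = 0.0013), or an adjusted p of 0.10 without the 24 h parental PT2399 array. The transcript thus remained well above the limit of 118 in cells labelled null, and since the position of the edit is not given this reading does not check it.

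ARNT2, a relative of the HIF2a partner ARNT, read 84.5 and 101 in null cells against 331 and 319 in drug-treated cells. HIF3A, a further HIF alpha subunit, read 95.3 and 54.8 against 216 and 178. RBX1, a subunit of the VHL ubiquitin ligase, read 510 and 720 against 1024 and 1160. ARNT2 was at least 2.76-fold and HIF3A at least 1.67-fold lower in null cells, and RBX1 differed by -0.85, with limma adjusted p-values of 0.00013, 0.00069 and 0.0097. RBX1 lost its pass without any 1 of 3 arrays (adjusted p from 0.16 to 0.32), all but the 48 h null array. ARNT itself (-0.37), HIF1A (0.13) and VHL (0.25) did not pass.

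Genes of 2 lists, known HIF2a-linked targets and genes that PT2399 had lowered in these parental cells, fell into 3 kinds here. Some had come down under PT2399 to a level from which the null cells did not differ by the test, some stood higher in null cells, and a few stood lower still. Of 15 tested genes on the list of HIF2a-linked targets, 2 passed as lower (13.3%, beside 19% of all genes) and 3 as higher (20%, beside 7.5%), and the list median was 0.09. Of 12 tested genes on a second list, chosen because PT2399 had lowered them in these same parental cells, 2 passed as lower (16.7%) and 4 as higher (33.3%). That second list is no independent evidence of what the drug does. Its genes were picked for low values on the PT2399 arrays subtracted here, which pushes their differences upward. The 33.3% beside 7.5% is therefore no result about these genes. In the fit over all 8 arrays, none of the first list and 1 of the second, DDIT4, passed.

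EGLN3, the prolyl hydroxylase that HIF switches on in feedback, is an example of the first kind. It read 863 and 566 in parental DMSO cells, 95.2 and 132 after PT2399 and 110 and 73.0 in null cells. The drug-treated and null arrays interleave below or near the limit, and their difference was -0.32 with a 95% interval of -0.88 to 0.24. ADM, the vessel-relaxing peptide adrenomedullin, read 861 and 773, then 160 and 194, and 195 and 225 in null cells. Its difference was 0.25 (interval -0.17 to 0.66), small beside the drop of 2.21 under PT2399 in parental cells. The glucose transporter SLC2A1 gave the same picture, at 3164 and 2915 in DMSO, 1012 and 1145 after PT2399 and 1042 and 1264 in null cells. Its interval ran from -0.32 to 0.51.

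NDRG1, a stress-induced gene, did not pass, with 810 and 465 after PT2399 and 483 and 378 in null cells, against 3916 and 2553 in parental DMSO cells. Its difference was -0.52 and its limma adjusted p 0.081. The lipid droplet coat gene PLIN2 (0.31, interval -0.14 to 0.75), the hormone gene STC1 (-0.15, -0.57 to 0.26), the carbonic anhydrase CA12 (0.06, -0.37 to 0.49), the lipase inhibitor HILPDA (-0.39, -0.85 to 0.06), the clotting initiator F3 (-0.41, -0.87 to 0.05) and APOL1 (-0.24, -0.72 to 0.24) did not pass either. These intervals allow differences of up to about 0.9 in size, so they do not show that the groups were equal. IRS2, the insulin receptor adaptor, had the widest interval, -0.70 to 0.71. It read 121 and 252 after PT2399 against 211 and 146 in null cells, and so was higher in null cells at 24 h and lower at 48 h.

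VEGFA and TGFA were the clearest of the second kind. VEGFA, the main vessel growth factor, read 2378 and 1841 in parental DMSO cells, 756 and 735 after PT2399 and 1979 and 2439 in null cells. PT2399 had lowered it by 1.49 on the log2 scale, while the null cells lay at 0.07 from the parental DMSO level. Null cells therefore held 2.95-fold more VEGFA signal than drug-treated cells (difference 1.56 ± 0.19, limma adjusted p = 0.00032). TGFA, a ligand of the EGF receptor, read 1474 and 1118 in DMSO, 378 and 521 after PT2399 and 1276 and 1793 in null cells, a difference of 1.77 ± 0.18 between the last pairs (limma adjusted p = 0.00012). For both genes the null arrays overlapped the parental DMSO arrays and lay above both PT2399 arrays. Both passed without any 1 of the 4 arrays, and in the 8-array fit their adjusted p-values were 0.063 and 0.053.

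DDIT4, an inhibitor of mTORC1, and TRIB3, a pseudokinase of the stress response, shared this order. Both come from the second list, chosen on these arrays. DDIT4 read 1786 and 1174 in DMSO, 815 and 473 after PT2399 and 1316 and 2003 in null cells, and TRIB3 read 564 and 481, 254 and 286, and 511 and 736. Null cells exceeded drug-treated cells by 1.39 ± 0.29 for DDIT4 and 1.19 ± 0.19 for TRIB3 (limma adjusted p = 0.0064 and 0.0016). CCND1, the G1 cyclin D1, lay between, at 460 and 776 after PT2399, 932 and 1063 in null cells and 2026 and 2137 in parental DMSO cells. It exceeded the drug-treated level by 0.74 ± 0.21 (limma adjusted p = 0.026), and no longer passed without a time term (0.13) or without any 1 array (0.071 to 0.82). DDIT4 lost its pass without either 48 h array (0.13 and 0.063) and TRIB3 without the 24 h parental PT2399 array (0.090).

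CCL20, a chemokine, had the largest difference on these lists and the least even one. It read 605 and 205 in parental DMSO cells, 143 and 101 after PT2399 and 397 and 1533 in null cells, which is 1.48 higher at 24 h and 3.92 higher at 48 h. EDN1, endothelin 1, read 84.2 and 102 after PT2399 and 120 and 160 in null cells, so at least 1.17-fold higher (limma adjusted p = 0.046). Its call ended without a time term (0.20) and without any 1 array (0.084 to 0.76).

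SEMA6A and GAL3ST1, both from the second list chosen on these arrays, were of the third kind, lower in null cells than after PT2399. SEMA6A, a membrane semaphorin, read 1022 and 588 in DMSO, 249 and 215 after PT2399 and 119 and 96.4 in null cells. GAL3ST1, which makes sulfatide, read 3129 and 2415, 1331 and 1082, and 563 and 559. Drug treatment lowered both by over 1 on the log2 scale, and the null cells lay a further 1.12 ± 0.19 and 1.10 ± 0.19 lower (limma adjusted p = 0.0018 and 0.0024), or 0.14 and 0.19 without the 24 h parental PT2399 array. EPO and TMEM45A also passed as lower, by 0.87 and 0.69, but PT2399 had moved them by only 0.39 and -0.07 in parental cells. Both lost the pass without 3 of the 4 arrays in turn (0.066 to 0.55 and 0.23 to 0.46).

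**Figure D2:**
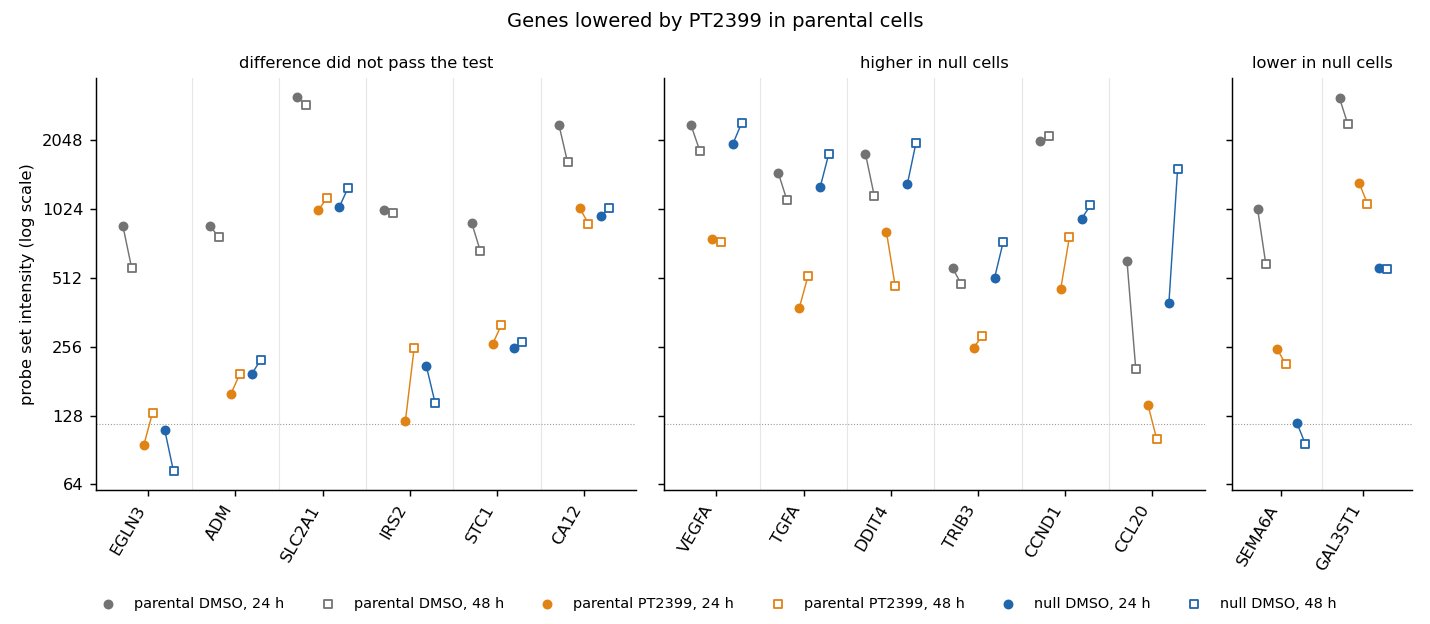
Probe set intensity on a log scale for genes lowered by PT2399 in parental cells, with 1 point per array, circles for 24 h and squares for 48 h; the dotted line is the limit of 118. In the left panel the orange (parental PT2399) and blue (null DMSO) points lie close together, in the middle panel the blue points lie above the orange ones, with VEGFA at 1979 and 2439 against 756 and 735, and in the right panel they lie below.

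The HIF core letters were looked for in the promoters of these genes, from 250 bases before to 50 after the gene start in RefSeq (GRCh38.p14). ACGTG or GCGTG, on either strand, occurred in 8 of 11 promoters found for the HIF2a-linked targets and in 5 of 8 for the genes lowered by PT2399. The share was 63.9% among 8888 promoters of tested genes and 48.4% among all 27305, so the letters are common in any case. Below are 2 genes that did not differ by the test, ADM and PLIN2, and 2 that were higher in null cells, EDN1 and DDIT4, with 30 bases on either side of the letters. Capitals mark the matches, and each sequence runs 5′ to 3′ on the strand of its gene. ADM lies at chr11:10304942-10305006 (+), PLIN2 at chr9:19127526-19127642 (-), EDN1 at chr6:12287896-12288006 (+) and DDIT4 at chr10:72273769-72273833 (+), all upstream of the gene start.
ADM: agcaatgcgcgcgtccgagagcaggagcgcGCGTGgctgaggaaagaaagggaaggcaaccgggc
PLIN2: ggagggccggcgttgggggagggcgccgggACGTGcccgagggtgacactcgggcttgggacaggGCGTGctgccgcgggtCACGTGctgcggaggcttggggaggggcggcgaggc
EDN1: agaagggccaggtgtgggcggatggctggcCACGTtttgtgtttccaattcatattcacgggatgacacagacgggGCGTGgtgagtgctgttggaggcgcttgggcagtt
DDIT4: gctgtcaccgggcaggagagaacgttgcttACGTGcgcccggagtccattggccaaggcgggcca
These genes were picked from those whose promoters held the letters, so that both kinds carry them follows from the choice. The promoter of PLIN2 held 5 matches, of which 4 are shown, where CACGTG is a match on each strand, and that of DDIT4 held 4, of which 1 is shown.

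The genes that PT2399 had raised in parental cells depended on the time. This list of 9 genes was also chosen on these arrays, with a median of -0.96 on the 24 h arrays and 0.72 on the 48 h arrays. Its genes were picked for high values on the PT2399 arrays, which pushes their differences downward. MMP7, a matrix protease, read 196 and 55.9 in parental DMSO cells, 873 and 273 after PT2399 and 400 and 555 in null cells. The null cells thus lay above both DMSO arrays, below the drug-treated array at 24 h and above it at 48 h, and the mean difference was -0.05. CLDN2, a tight junction pore protein, passed as lower in null cells, with a difference of -1.25 ± 0.35 (limma adjusted p = 0.025). Most of it came from 24 h, at 237 against 1051, while at 48 h the readings were 245 against 310, and it did not pass without a time term (0.095) or without 3 of the arrays in turn (0.17 to 0.81).

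GDF15 and IL18 were higher in null cells. GDF15, a stress cytokine, read 213 and 134 in parental DMSO cells, 471 and 221 after PT2399 and 2091 and 2393 in null cells. The null cells stood 6.94-fold above the drug-treated cells (2.79 ± 0.28, limma adjusted p = 9.1e-05), in the direction in which the drug itself had moved the gene. IL18 read 572 and 499 after PT2399 and 727 and 1338 in null cells, a difference of 0.88 ± 0.25 (limma adjusted p = 0.028) that did not pass without a time term (0.087) or without 3 of the arrays in turn (0.16 to 0.29).

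Genes of cholesterol synthesis were lower in null cells almost as a block. Of 16 tested genes 13 passed as lower, against 19% of all genes, and 1 as higher, beside 7.5%. At both times 6 were at least 2-fold lower, beside 5.5% of all genes. The list median was -1.05, or -0.89 relative to all genes, with -1.26 at 24 h and -0.72 at 48 h. Under PT2399 in parental cells the median had moved by 0.11, and between null and parental DMSO cells it was -0.99. There were 12 lower calls with centred arrays, beside 14.6% of all genes, and 4 in the 8-array fit, beside 387 of 11050 genes.

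INSIG1, which holds back the sterol-sensing factor SREBP and is itself switched on by it, showed the largest fall. It read 172 and 198 in null DMSO cells, 1539 and 1005 in parental PT2399 cells and 1239 and 787 in parental DMSO cells. All parental arrays lay far above both null arrays, and the difference was -2.75 ± 0.23 (limma adjusted p = 3.7e-05). HMGCS1, the enzyme that makes HMG-CoA, read 368 and 370 against 1759 and 1026 (-1.87 ± 0.22). IDI1, an isomerase of the isoprenoid steps, read 376 and 401 against 1471 and 1274 (-1.82 ± 0.19). MSMO1 and DHCR7, late enzymes of the sterol path, were lower by 1.65 ± 0.23 and 1.56 ± 0.19, and NSDHL by 1.30 ± 0.18, with limma adjusted p-values of 0.00065, 0.00031 and 0.00073.

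SREBF2, which encodes the SREBP factor of this pathway, was lower too, at 388 and 377 in null cells against 832 and 602 (-0.89 ± 0.20, limma adjusted p = 0.0089), a pass lost without any 1 array (0.068 to 0.50). PMVK (-0.57) and FDPS (-0.41), a kinase and a synthase of the middle steps, did not pass. MVK, mevalonate kinase, ran against its list, at 885 and 863 in null cells and 138 and 108 after PT2399. At 2.84 ± 0.19 it was 7.16-fold higher, and parental DMSO cells, at 122 and 107, resembled the drug-treated ones.

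Fatty acid and lipid droplet genes leaned the same way with less uniformity. Of 21 tested genes 11 passed as lower, beside 19% of all genes, and 2 as higher, beside 7.5%, and the median was -0.63. The 8-array fit gave 3 lower calls and no higher one, beside 387 and 209 of 11050 genes. SCD, the desaturase that makes oleate, read 857 and 522 in null cells and 2499 and 1417 after PT2399, and 1528 and 955 in parental DMSO cells. The difference of -1.49 ± 0.19 thus spans a rise of 0.64 under the drug and a null level 0.85 below the parental DMSO level. FASN, fatty acid synthase, was lower by 1.24, FADS2 by 1.22, the phosphatase LPIN1 by 1.17 and the triglyceride enzyme DGAT2 by 1.12, each with SE 0.19 to 0.21 and a limma adjusted p between 0.0011 and 0.0026. The higher ones were PPARG, a nuclear receptor of lipid storage, at 604 and 696 against 294 and 325 (1.07 ± 0.19), and G0S2, which inhibits lipolysis, at 1363 and 2102 against 663 and 1044 (1.02 ± 0.18). Without the 24 h parental PT2399 array, none of the 7 genes just named passed (adjusted p from 0.082 to 0.45).

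**Figure D3:**
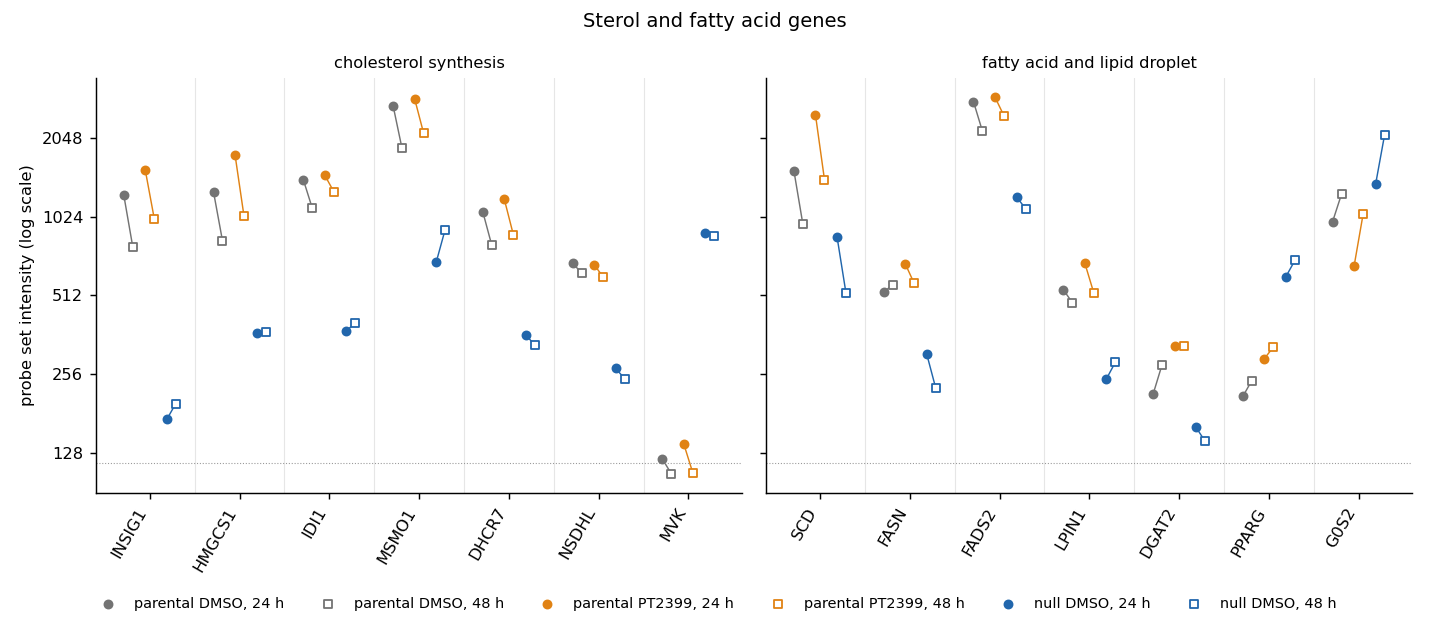
Probe set intensity on a log scale for sterol genes (left) and fatty acid and lipid droplet genes (right), with 1 point per array, circles for 24 h and squares for 48 h; the dotted line is the limit of 118. Null DMSO cells (blue) lie below parental PT2399 cells (orange) for INSIG1, at 172 and 198 against 1539 and 1005, and for its neighbours, and above them for MVK, PPARG and G0S2.

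A search for the sterol element letters TCACNCCAC on either strand found 1 of 15 cholesterol gene promoters and 1 of 17 fatty acid gene promoters, beside 1.04% of the promoters of tested genes. The 1 cholesterol gene was SREBF2, shown here with the letters in capitals and 30 bases around them, at chr22:41832942-41833010 (+, GRCh38.p14). The search allows only these letters in this window.
SREBF2: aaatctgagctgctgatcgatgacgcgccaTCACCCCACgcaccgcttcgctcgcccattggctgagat

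Cytokine, chemokine and NF-kB genes stood higher in null cells. Of 26 tested genes 13 passed as higher, against 7.5% of all genes, and 2 as lower, beside 19%. At both times 9 were at least 2-fold higher, beside 2.81% of all genes. The 13 include CCL20 and IL18, already described above. The median of the list was 0.80, or 0.96 relative to all genes. PT2399 had moved this median by 0.13 in parental cells, and the null cells stood 0.86 above parental cells in DMSO. The 8-array fit passed 8 genes as higher, beside 209 of 11050 genes, and the fit on centred arrays 18, beside 12.3% of all genes.

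PTX3, a secreted pattern recognition protein, had the largest difference of the list, with 1652 and 2358 in null cells, 187 and 283 after PT2399 and 243 and 241 in parental DMSO cells. It was 8.57-fold higher (3.10 ± 0.19, limma adjusted p = 7e-06). IL6 read 4684 and 5212 in null cells against 822 and 1135, a 5.12-fold difference (2.36 ± 0.19, limma adjusted p = 3.6e-05). CXCL8, the neutrophil chemokine interleukin 8, read 5035 and 6378 against 1326 and 1625. For these 3 genes the parental DMSO arrays lay near the PT2399 arrays, and the null arrays lay above all parental arrays.

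CXCL2, TNFAIP2 and the monocyte chemokine CCL2 differed by 1.97, 1.86 and 1.85, each with SE 0.18 to 0.19 and limma adjusted p-values of 7.7e-05, 9.6e-05 and 9.6e-05. TNFAIP3, the brake on NF-kB known as A20, read 781 and 989 against 296 and 221 (1.78 ± 0.22), and TNF itself read 197 and 251 against 92.4 and 128 (1.03 ± 0.19). The adhesion molecules VCAM1 and ICAM1 were higher by 1.29 ± 0.23 and 1.08 ± 0.20. IL32 and IL11 were the 2 lower genes, by 0.97 ± 0.19 and 0.68 ± 0.18 (limma adjusted p = 0.0048 and 0.024). TNF, ICAM1, IL32 and IL11 each lost the pass when the 24 h parental PT2399 array was left out (0.16 to 0.79), and VCAM1 without the 48 h one (0.090). NFKBIA, the classical inhibitor and target of NF-kB, differed by 0.49 without passing (limma adjusted p = 0.08).

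An NF-kB element, spelled GGG, any 2 bases and TTTCC, was found on either strand in 10 of 20 promoters of this list, beside 2.22% of the promoters of tested genes and 1.92% of all. Membership of the list rests on known NF-kB targets, so this share is a description of the list. The genes of the CXCL1, CXCL2 and CXCL3 cluster on chromosome 4 have the same element and did not read alike, which is why they are shown. IL6 and TNFAIP3 are added as further genes that were higher. CXCL1 read 4491 and 5621 in null cells against 1853 and 1863 (1.44 ± 0.19). CXCL3 read 130 and 126 against 167 and 99.4, a difference of -0.01 close to the limit. Since the CXCL genes are close copies, probes of one may also bind transcripts of another. Positions are chr4:73869284-73869353 (+) for CXCL1, chr4:74099234-74099303 (-) for CXCL2, chr4:74038729-74038798 (-) for CXCL3, chr7:22727097-22727166 (+) for IL6 and chr6:137867162-137867243 (+) for TNFAIP3, in GRCh38.p14, and capitals mark the element.
CXCL1: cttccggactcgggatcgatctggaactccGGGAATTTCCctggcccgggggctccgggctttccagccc
CXCL2: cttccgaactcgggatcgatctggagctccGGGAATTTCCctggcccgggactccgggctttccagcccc
CXCL3: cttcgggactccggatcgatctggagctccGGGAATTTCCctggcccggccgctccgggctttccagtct
IL6: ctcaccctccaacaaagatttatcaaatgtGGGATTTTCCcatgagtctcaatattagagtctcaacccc
TNFAIP3: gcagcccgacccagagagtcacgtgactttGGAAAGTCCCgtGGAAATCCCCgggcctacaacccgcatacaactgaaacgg
The element of the 3 CXCL genes was letter for letter the same, and TNFAIP3 carried 2 on the opposite strand.

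The amino acid and unfolded protein response was the other group that stood higher in null cells. Of 23 tested genes 12 passed as higher, beside 7.5% of all genes, and none as lower, beside 19%, and the median was 0.69, or 0.86 relative to all genes. The 12 include DDIT4 and TRIB3, already described above. The drug had moved the median by -0.01 in parental cells. The 8-array fit passed 5 of the genes as higher, beside 209 of 11050 genes. The fit on centred arrays passed 16, where the share of all genes also rose, from 7.5% to 12.3%.

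CHAC1, a glutathione-degrading enzyme switched on by ATF4, read 765 and 1044 in null cells, 166 and 143 after PT2399 and 120 and 138 in parental DMSO cells. DDIT3, the stress factor CHOP, read 667 and 748 in null cells, 156 and 149 after PT2399 and 146 and 165 in DMSO. Both were low on every parental array, and their differences were 2.54 ± 0.21 and 2.21 ± 0.19 (limma adjusted p = 4.2e-05 and 4.4e-05). ATF3, under the limit in drug-treated cells, was at least 2.07-fold higher, and SESN2 was higher by 1.24 ± 0.21. The amino acid genes PSAT1 and SLC7A11 differed by 1.06 ± 0.19 and 1.03 ± 0.19. Without the 48 h parental PT2399 array ATF3 and SESN2 lost the pass (0.091 and 0.15), and without the 24 h one PSAT1 and SLC7A11 did (0.21 and 0.36).

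ATF4, whose product drives these genes, gave no settled direction. Its brightest probe set was 0.63 ± 0.19 higher in null cells (limma adjusted p = 0.032), with no pass without any 1 array (0.082 to 0.66). The mean over its probe sets was 0.82 lower, a value of -0.82 (limma adjusted p = 0.0096).

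SLC3A2 and SLC7A5, the subunits of a neutral amino acid transporter, had both been lowered by PT2399, by 0.65 and 1.24. SLC3A2 read 2636 and 2869 in null cells against 1145 and 1443 after PT2399 (1.10 ± 0.19, limma adjusted p = 0.0022, and 0.21 without the 24 h parental PT2399 array). SLC7A5 read 1961 and 1758 against 872 and 1577, higher in null cells chiefly at 24 h, and did not pass (0.66, limma adjusted p = 0.075). HSPA5, the main chaperone of the endoplasmic reticulum, did not pass (0.39). CHAC1 and HERPUD1 were the 2 of 20 promoters with TGATGCAA on either strand, an amino acid response element, beside 0.551% of the promoters of tested genes. The element of CHAC1 is shown because that gene had the largest difference of the list, on the opposite strand, at chr15:40953232-40953299 (+, GRCh38.p14).
CHAC1: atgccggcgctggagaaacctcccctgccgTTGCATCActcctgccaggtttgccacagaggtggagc

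**Figure D4:**
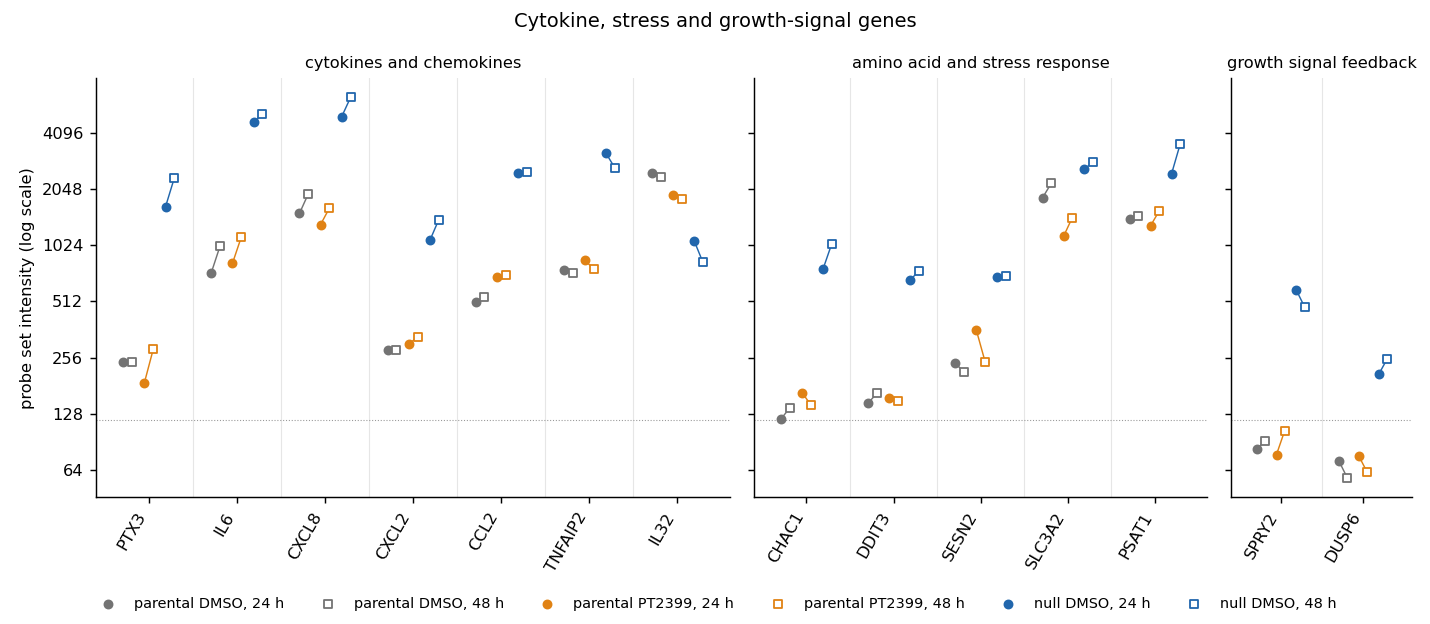
Probe set intensity on a log scale for cytokine genes, stress response genes and inhibitors of growth signalling, with 1 point per array, circles for 24 h and squares for 48 h; the dotted line is the limit of 118. Parental DMSO (grey) and parental PT2399 cells (orange) mostly lie near each other and null DMSO cells (blue) above them, as for IL6 at 4684 and 5212 against 822 and 1135, with IL32 as the exception.

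Genes answering p53 and interferon included several that were higher in null cells. Of 17 tested p53 targets 6 passed as higher, beside 7.5% of all genes, and 1, ZMAT3 (-1.03 ± 0.22), as lower, beside 19%. The 6 include GDF15 and SESN2, already described above. CDKN1A, the cell cycle inhibitor p21, read 1616 and 2803 in null cells against 856 and 662 (1.5 ± 0.26, limma adjusted p = 0.0025). Of 32 interferon response genes 7 passed as higher (21.9%, beside 7.5%) and 2, IFITM2 and BST2, as lower (6.25%, beside 19%). With centred arrays 13 passed as higher, beside 12.3% of all genes, and 2 as lower, beside 14.6%. The median was 0.04 at 24 h and 0.66 at 48 h. XAF1 read 522 and 1015 against 195 and 201 (1.88 ± 0.24), IFIT2 523 and 674 against 208 and 187 (1.59 ± 0.20) and the factor IRF1 742 and 915 against 276 and 280 (1.57 ± 0.19). ISG15, usually among the strongest interferon genes, read 194 and 195 in null cells and 200 and 188 after PT2399. The 8-array fit gave 3 higher calls in each list, and without the 24 h parental PT2399 array ZMAT3, IFITM2 and BST2 no longer passed (0.34 to 0.52).

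Of 16 tested growth factor receptor and signalling genes 6 passed as higher (37.5%, beside 7.5% of all genes) and 3 as lower (18.8%, near the 19% of all genes). SPRY2, which restrains receptor tyrosine kinases, read 590 and 480 in null cells against 77.2 and 104, at least 4.52-fold more (limma adjusted p = 4.4e-05). DUSP6, a phosphatase that switches off ERK, read 208 and 250 against 75.6 and 62.2, at least 1.94-fold more. Both lay below the limit on all parental arrays and were tested because of their level in null cells. ETV5 and DUSP5, which also follow ERK activity, were higher by 1.11 ± 0.20 and 1.0 ± 0.19, or at an adjusted p of 0.19 and 0.073 without the 24 h parental PT2399 array. The lower genes were IGF1R (-0.88), FGFR4 (-0.79) and IRS1 (-0.63), none of which passed without that array (0.26 to 0.71).

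Among growth factor genes, 6 of 17 passed as higher (35.3%, beside 7.5% of all genes) and 2 as lower (11.8%, beside 19%). The lists overlap, and the 6 include VEGFA, TGFA and EDN1, already described above. EREG, a ligand of the EGF receptor as TGFA is, read 3552 and 5292 in null cells against 1412 and 2025 (1.36 ± 0.19, limma adjusted p = 0.00057, and 0.092 without the 24 h parental PT2399 array). FGF5 and PDGFA were the lower ones, FGF5 at 99.8 and 124 against 697 and 550 (-2.48 ± 0.21) and PDGFA at 325 and 381 against 643 and 785 (-1.01 ± 0.19). PDGFA lost its pass without any 1 array but the 48 h null array (0.055 to 0.22).

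Cell cycle genes showed no common direction. Of 34 G1/S and replication genes 4 passed in each direction (11.8% each, beside 19% lower and 7.5% higher of all genes), and of 27 mitotic genes 2 passed as lower (7.41%) and 1 as higher (3.70%). The list medians were -0.13 and 0.02. PT2399 had lowered these medians by 0.43 and 0.30 in parental cells. CCNE1, cyclin E1, stood out at 764 and 694 in null cells against 112 and 159 (2.45 ± 0.21, limma adjusted p = 4.7e-05), with 151 and 163 in parental DMSO cells. GINS1, part of the replicative helicase, was lower at 243 and 256 against 564 and 690 (-1.32 ± 0.19).

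Passing genes were all lower on the lists of patterning factors and collagens, and ran both ways on the other identity and matrix lists. Of 27 tested genes on a list of HOX, MEIS, PBX, IRX and TBX patterning factors 9 passed as lower, beside 19% of all genes, and none as higher, beside 7.5%. HOXD13 read 123 and 68.9 in null cells against 429 and 647 (-2.51 ± 0.30), and HOXB5 95.1 and 71.5 against 364 and 298, at least 2.80-fold less. With arrays centred 8 passed as lower and 1 as higher, beside 14.6% and 12.3% of all genes. In the 8-array fit 2 passed as lower, beside 387 of 11050 genes. SIX2, a homeobox factor of nephron progenitors that was on the kidney list and not on this one, was higher at 903 and 753 against 184 and 160 (2.26 ± 0.19). Of 14 tested collagens 4 passed as lower (28.6%, beside 19% of all genes) and none as higher, beside 7.5%. The collagen COL8A1 read 67.0 and 71.8 against 433 and 391, at least 3.50-fold less. The cadherin CDH3 read 372 and 204 against 77.6 and 59.6, at least 2.34-fold more. The epithelial keratin KRT7 (at least 1.86-fold) and the mesenchymal factor FOXC2 (-1.95 ± 0.19) were both lower.

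Signalling genes of other pathways followed no common direction. NKD1, a WNT feedback inhibitor, read 1045 and 759 in null cells against 123 and 106 (2.97 ± 0.19), and LATS2, a Hippo kinase, 333 and 297 against 964 and 948 (-1.60 ± 0.19). INHBA, the activin subunit, was higher by 1.62 ± 0.18 and SMAD6, an inhibitor of BMP signals, lower by 1.46 ± 0.19. AHR, a relative of HIF2a that also pairs with ARNT, read 2034 and 2946 against 837 and 971 (1.44 ± 0.19, limma adjusted p = 0.00049). CD47, a signal against phagocytosis, read 812 and 740 against 2028 and 2072 (-1.40 ± 0.19).

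Few or no genes passed on 2 further lists. Of 27 glycolysis and HIF1a-linked genes DDIT4 alone passed, beside 26.5% of all genes in either direction, and the median was -0.06. None of the 23 ribosomal protein genes on their list passed, with differences from -0.34 to 0.35; RPL28, described below, was not on that list. Oxidative phosphorylation genes gave 5 lower calls of 24, NRF2 targets 3 lower and 1 higher of 19, and iron and copper genes 3 lower of 18, each close to the 19% of all genes.

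**Figure D5:**
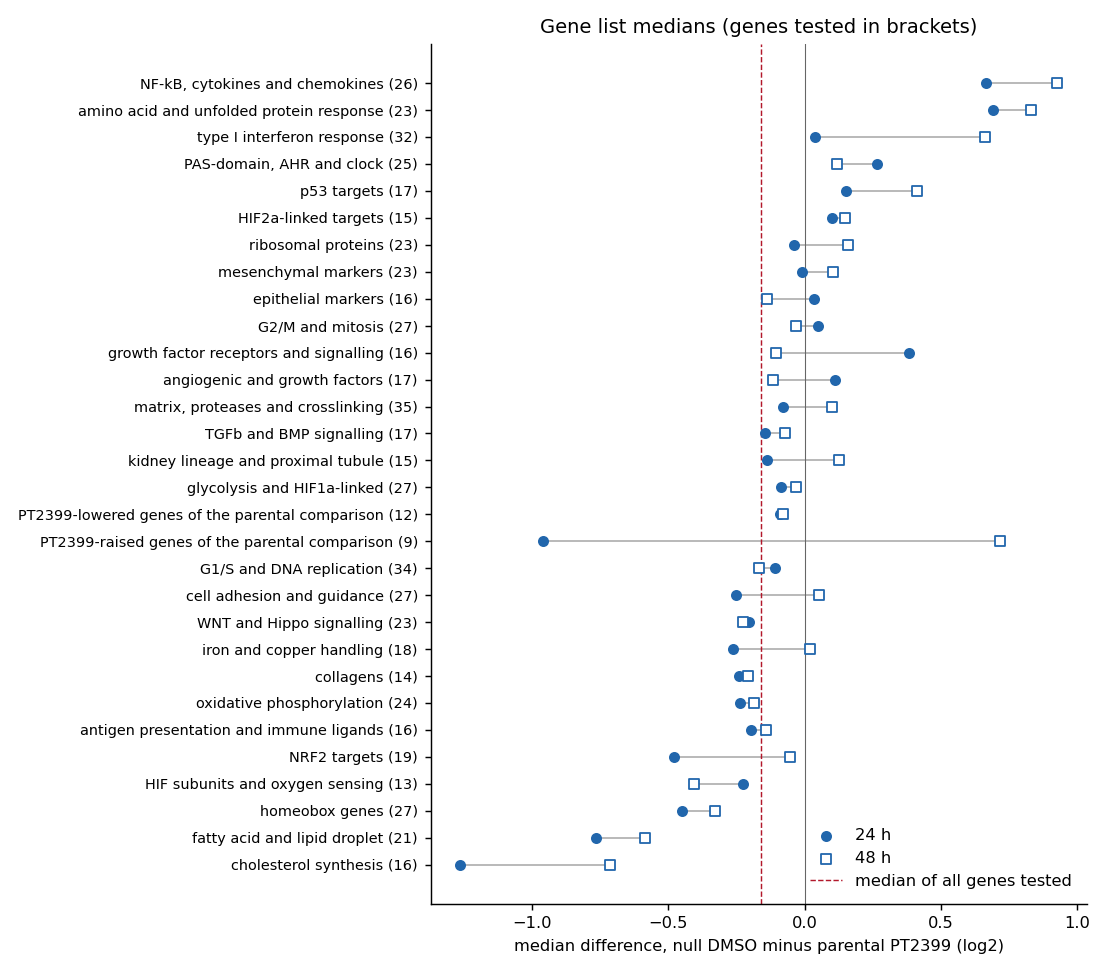
Median difference between null DMSO and parental PT2399 cells in log2 units for 30 gene lists, circles for 24 h and squares for 48 h; the dashed line is the median of all genes tested, -0.16. Cytokine and amino acid response lists lie highest, at 0.66 and 0.93 and at 0.69 and 0.83, and cholesterol synthesis lies lowest, at -1.26 and -0.72.

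The largest measured difference in each direction belonged to a gene read high in 1 experiment and low in the other, with little change under PT2399. PIGH, an enzyme that builds the glycolipid anchor of surface proteins, read 14.6 and 38.9 in null cells, 2880 and 2657 in parental PT2399 cells and 2399 and 2323 in parental DMSO cells. It was at least 23.5-fold lower in null cells. ENDOG, a mitochondrial nuclease, read 5549 and 4614 in null cells, 212 and 180 after PT2399 and 175 and 221 in parental DMSO cells (4.69 ± 0.18). At both times, 18 genes were lower and 14 higher by 8-fold or more. Genes with near-identical copies, antisense genes and the like were counted and not named by rule. The lower genes that it does name after PIGH were PRIMA1 (at least 7.55-fold), LYSET (-4.13), TSPAN32 (at least 9.53-fold) and GPR75 (-3.79), and the higher ones after ENDOG were ZRSR2 (4.35), EXTL3 (4.04), MAFA (3.75) and LAPTM5 (at least 10.1-fold).

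Genes that cells are known to need were among those with the largest differences. RPL28, a protein of the large ribosomal subunit, read 97.8 and 143 in null cells against 5496 and 5786 (-5.58 ± 0.20). PPIA, cyclophilin A, read 6423 and 6741 in null cells but 333 and 340 after PT2399 (4.29 ± 0.18). By measured difference they ranked 2 among the lower and 3 among the higher genes. Both fall outside the naming rule and were chosen for mention after their values had been seen. The null PT2399 array of 24 h gave 114 for RPL28 and 6974 for PPIA, and parental DMSO cells gave 4696 and 5172 for RPL28 and 373 and 372 for PPIA, so the readings go with genotype and experiment on every array named. Genotype and experiment cannot be told apart for these genes. Of 26 genes with a 2-fold difference and a second probe set above the limit, 15 had all probe sets 2-fold in the same direction. Another 9 had a probe set of the opposite sign at 1 time or both. Many of the 15, such as LST1, NDUFB4 and SCX, had a second probe set with the same or nearly the same values. Such a probe set is no separate reading, so the 15 do not count as agreement between independent probe sets.

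Size and level were related. Ranked by mean level into 4 equal groups, 11.1%, 10.2%, 7.64% and 4.27% of genes from the lowest to the highest group were 2-fold different at both times. Across genes, the differences at 24 h and at 48 h correlated at 0.81, as a description of 11050 genes that share arrays. Both differences were within 0.5 for 5470 genes, 49.5%.

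Neighbouring genes showed modest stretches of a common direction. Over windows of 25 neighbouring tested genes, the central 95% of window medians ran from -0.40 to 0.08. The windows named next are the extremes of 10476 overlapping ones, picked by their values and not tested. The lowest were from ZNF746 to WDR86 on chromosome 7 (-0.66) and from MYO9B to PDE4C on chromosome 19 (-0.58). In the first 20 of 25 genes were lower. In the second all 25 were lower and 13 passed, beside 19% of all genes, and the median gene itself differed by -0.16. The highest ran from H3C1 to BTN2A2 on chromosome 6 (0.38), a stretch that holds replication-dependent histone genes, where 19 of 25 were higher and PT2399 had lowered the median by 0.34 in parental cells.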

How the data were processed

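Total RNA from 786-O cells was labelled with an Affymetrix whole-transcript kit, per the labels' protocols. The deposited table holds linear probe set intensities for 33252 probe sets on 8 arrays; no source used here gives the steps by which the authors corrected, summarised and scaled these intensities. The planned design expected log2 values, so log2 was taken first. Gene names came from the platform annotation, updated by Entrez identifier to the RefSeq gene table of GRCh38.p14 (19429 of 19460 probe sets with 1 gene). Probe sets with several genes (1754) or no name (12038) named no gene. A gene was read from its probe set with the highest mean, and the 11050 of 18417 genes whose mean reached the 40th percentile were tested.

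For the 4 arrays of the comparison, limma 3.58.1 (R 4.3.3) fitted one model (group and time terms, 1 residual degree of freedom, Benjamini-Hochberg adjustment, threshold 0.05); other tables used Python 3.11.15. Intervals are 95% intervals of that fit. On simulated data with 11050 genes the fit recovered all 50 genes at each 4-fold change. It recovered 33 and 39 of 50 at 2-fold lower and higher, and called 12 of 10850 unchanged genes. The simulated noise was independent and drawn from the fitted spread, with no time or run difference and few genes changed. It therefore checks the working of the fit and does not show how many calls on the real arrays are false.

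Alternatives were centring, quantile normalization, no filter, a filter at percentile 60, an offset of 16, the mean over probe sets, no time term, all 8 arrays, 6 arrays (adding parental DMSO), trend and robust estimation, each array left out, and, added after seeing the data, each time alone for the 2-fold count. Genes named were the 15 largest 2-fold passes in each direction and up to 6 leading members of each of 31 lists, plus fixed HIF genes. Not all are named, and genes outside the rule were chosen after their values were seen. The comparison and the lists were chosen with earlier results of these data known. The number of arrays limits precision.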

Additional observations from a re-analysis of the deposited data

Results flagged for a closer look

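In 8 of the listed genes the difference between null DMSO and parental PT2399 cells ran in opposite directions at the 2 times, by at least 0.5 on the log2 scale each time. With 1 array per group and time, this change between times was not tested. Over all 11050 genes 34 did so.

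Genes that PT2399 had raised in parental cells make up most of them, lower in null cells at 24 h and higher at 48 h. MMP7 differed by -1.128 at 24 h and 1.022 at 48 h, and COL14A1, a fibril-associated collagen, by -0.6326 and 0.7162. The aldo-keto reductases followed the same order, AKR1B10 at -1.494 and 0.5133, AKR1C1 at -0.9591 and 0.7659 and AKR1C3 at -1.183 and 0.6165. AKR1C1 and AKR1C3 are near-identical copies, so their separate values are uncertain. The 24 h parental PT2399 array had the highest median intensity of the 8 arrays (134), and its part in these values was not tested.

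The interferon response genes IFI44L (-0.8688 and 1.138) and SAMD9 (-0.5007 and 0.5108) also turned from lower to higher. IRS2 alone turned the other way, at 0.7977 and -0.7928.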

How the results depend on the processing

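Lower and higher passes numbered 2099 and 829. They became 1616 and 1363 with centred arrays, 3614 and 1475 with no filter (18417 genes tested), 1324 and 514 with the filter at percentile 60 (7367 genes tested), 1041 and 453 without the time term and 387 and 209 over all 8 arrays. Leaving out 1 array gave 505 to 1145 lower and 325 to 562 higher passes. The 2-fold counts of 608 and 311 became 1127 and 537 with no filter, 318 and 195 at percentile 60 and 1064 and 494 at 24 h alone. The other settings stayed within 1.5 times. The reported fit pairs the arrays by time, and the labels give no other replicate numbers. Of the 101 passing genes named with a difference, 50 kept direction and pass under the 14 settings. Of all 123 genes so named, passing or not, the filter at percentile 60 tested 101, so some were not tried under every setting. ATF4 alone reversed, to -0.8174 as the mean over its probe sets, and the cause was not tested.

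Genes without a pass that changed sign lay near 0: MMP7 with centred arrays (0.1064) and quantile normalization (0.0809), CXCL3 (0.1492 and 0.1403) and STC1 (0.004796 and 0.0374) likewise, and IRS2 with the offset (-0.003309). Over the fits that left out 1 array, CA12 ranged from -0.05346 to 0.1711, CXCL3 from -0.3853 to 0.3652, HIF1A from -0.01782 to 0.2772, IRS2 from -0.5253 to 0.5302, MMP7 from -0.8914 to 0.7856, SLC2A1 from -0.04643 to 0.2312 and VHL from -0.03574 to 0.5292.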

Other observations

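Probe sets without a gene name differed about as often as named ones. Of 3650 such probe sets above the limit, 8.58% were 2-fold different at both times, 162 lower and 151 higher in null cells, beside 8.38% of named probe sets.

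EZHIP, an inhibitor of the histone methyltransferase PRC2 that is normally a germ cell gene, read 875 and 403 in null DMSO cells at 24 h and 48 h. It read 107 and 95.0 in parental PT2399 cells and 57.3 and 102 in parental DMSO cells, below the limit of 118 on every parental array. It was tested because of its level in null cells, where it was at least 5.04-fold higher against that limit (limma adjusted p = 6.8e-05). Only 4 of 14 measured cancer-testis genes lay above the limit, and 1 passed in each direction, too few to set beside the 19% and 7.5% of all genes.

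DBP, a clock output gene, read 178 and 134 in null cells against 484 and 512 (-1.69 ± 0.20, limma adjusted p = 0.00025), while NFIL3, which represses the same sites, read 993 and 1090 against 441 and 454 (1.22 ± 0.19, limma adjusted p = 0.0011). Of 25 PAS-domain and clock genes 4 passed in each direction (16% each, beside 19% lower and 7.5% higher of all genes). With centred arrays 3 passed as lower and 8 as higher, beside 14.6% and 12.3%.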
